A study of Homo sapiens with 6 samples.

Results

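The mRNAs described here are 9 genes of the major histocompatibility complex (MHC) class I antigen presentation pathway: the heavy chains HLA-B, HLA-C and HLA-E, the light chain B2M, the peptide transporter subunits TAP1 and TAP2, the loading factor TAPBP, the trimming enzyme ERAP1 and the transactivator NLRC5. They were taken by gene symbol from a table of 14959 genes, and all 9 symbols were found. The RNA came from UM-SCC1 cells, a long-established line of head and neck squamous cell carcinoma (HNSCC). In 3 libraries the cells had received miR-204-5p mimics, which are synthetic double-stranded RNAs that cells use as the mature miRNA. In the other 3 they had received control mimics, and RNA was measured 48 h after transfection in both groups. The design text states independent experiments within each group, and no other allele or agent separates the groups, which share the transfection itself (miRIDIAN mimics with Lipofectamine RNAiMax). Both groups are of 1 cell line.

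In this pathway, proteasomes cut cytosolic proteins into peptides and the TAP1-TAP2 transporter pumps them into the endoplasmic reticulum. There ERAP1 trims them, and TAPBP (tapasin) bridges the transporter to a class I heavy chain paired with B2M and selects peptides that bind well. The loaded complex is shown at the cell surface to CD8+ T cells, and HLA-E, which presents mainly signal peptides of other class I chains, is read by natural killer cells. NLRC5 drives transcription of class I genes, and interferon raises most of the set, and tumor cells that lose these genes are known to escape T cells.

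The mature miRNA is shown first because its seed, bases 2 to 8 in capitals, sets the letters sought in the 3'UTRs of the members. The sequence is that of RefSeq on GRCh38.p14, at chr9:70810031-70810052 on the minus strand, 22 bases long.
hsa-miR-204-5p: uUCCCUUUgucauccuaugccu
The letters searched were AAAGGGAA for a match of 8 bases, AAAGGGA and AAGGGAA for matches of 7 bases and AAGGGA for a match of 6 bases, on the strand of the transcript, with each site counted under its longest match. In the longest 3'UTR that GENCODE 29 annotates for each gene, 27.1% of 14664 genes held a match of 7 or 8 bases, 12.3% held a 6-base match at best and 60.6% held none. Of the 9 members, 0 held a match of 7 or 8 bases there, and TAPBP and NLRC5 held a 6-base match. When all annotated 3'UTRs of a gene were joined, 2 members held a longer match, against 29.2% of genes. These were B2M with 8 bases and ERAP1 with 7 bases, each in 1 annotated transcript that is not the one listed in the table. The sites of the 4 members are shown with the matching letters in capitals, 5′ to 3′ on the transcript, from GRCh38.
TAPBP, chr6:33301591-33301615, minus strand, exon 8 of 8, 156 bases after the stop codon: ttcacttatatAAGGGAtaattttt
NLRC5, chr16:57083298-57083322, plus strand, exon 49 of 49: ctgtcctatgtAAGGGAcaaagcca
B2M, chr15:44716826-44716852, plus strand, in 1 of 4 coding transcripts with a 3'UTR: ctagaggagatAAAGGGAAacagattg
ERAP1, chr5:96774926-96774951, minus strand, in 1 of 3 coding transcripts with a 3'UTR: aacttcaagatAAGGGAAtatgattg
The TAPBP site lies in the listed transcript, and the other 3 sites do not. A match is a description of letters, and binding was not measured.

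Expression was given in FPKM, the number of fragments scaled by transcript length and library size, a unit that allows levels to be set side by side per length. Differences are log2 changes, that is, log2 ratios of FPKM + 1, which understate changes of low genes, with positive values for higher levels with miR-204-5p mimics. Across all genes, Spearman correlations of FPKM were 0.9899 to 0.9908 within groups and 0.9733 to 0.9756 between them. Squamous markers such as KRT5, KRT14 and TP63 were all detected, and the leukocyte marker PTPRC stayed between 0.120 and 0.546 FPKM. Summed over 10 squamous markers, FPKM was 948 to 1038 with miR-204-5p mimics and 1091 to 1118 with control mimics, with 6 markers lower and 3 higher by limma at an adjusted p under 0.05. The leukocyte list summed to 28.1 to 31.8 against 33.6 to 35.0, mostly CD14 and CD68, and 7 of its 10 genes had a mean FPKM under 1. Of 10 fibroblast and endothelial markers, 7 were in the table, summing to 10.4 to 12.4 against 9.03 to 9.91, mostly COL1A1. All 3 sums separated the groups, and their part in the results that follow was not tested. In bulk RNA, fewer cells with an mRNA and less of it per cell cannot be told apart.

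With miR-204-5p mimics, TAP1, TAP2, HLA-E and HLA-B rose by a log2 change of 0.21 to 0.35, while TAPBP fell by 0.68 and ERAP1 fell by 0.40 on the log2 scale. HLA-C, NLRC5 and B2M did not pass the test. The mRNAs of the transporter and 2 heavy chains were thus higher, and those of the loading and trimming factors lower. By limma at an adjusted p under 0.05 over all 14959 genes, 6 of 9 members were called, 4 higher and 2 lower, where 40.8% of all genes were called, 23.9% higher and 16.8% lower. With quantile normalization, 3043 of all genes were higher and 3026 lower, against 3578 and 2520 on FPKM as listed. The same 6 members had no overlap between the groups, against 53.6% of all genes, 30.9% higher and 22.7% lower. The median log2 change of the members was 0.21, against 0.03 over all genes. For a single gene, the two-sided exact permutation test of 3 against 3 libraries cannot go below p = 0.1, and it gave that value for each of the 6.

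**Figure D1:**
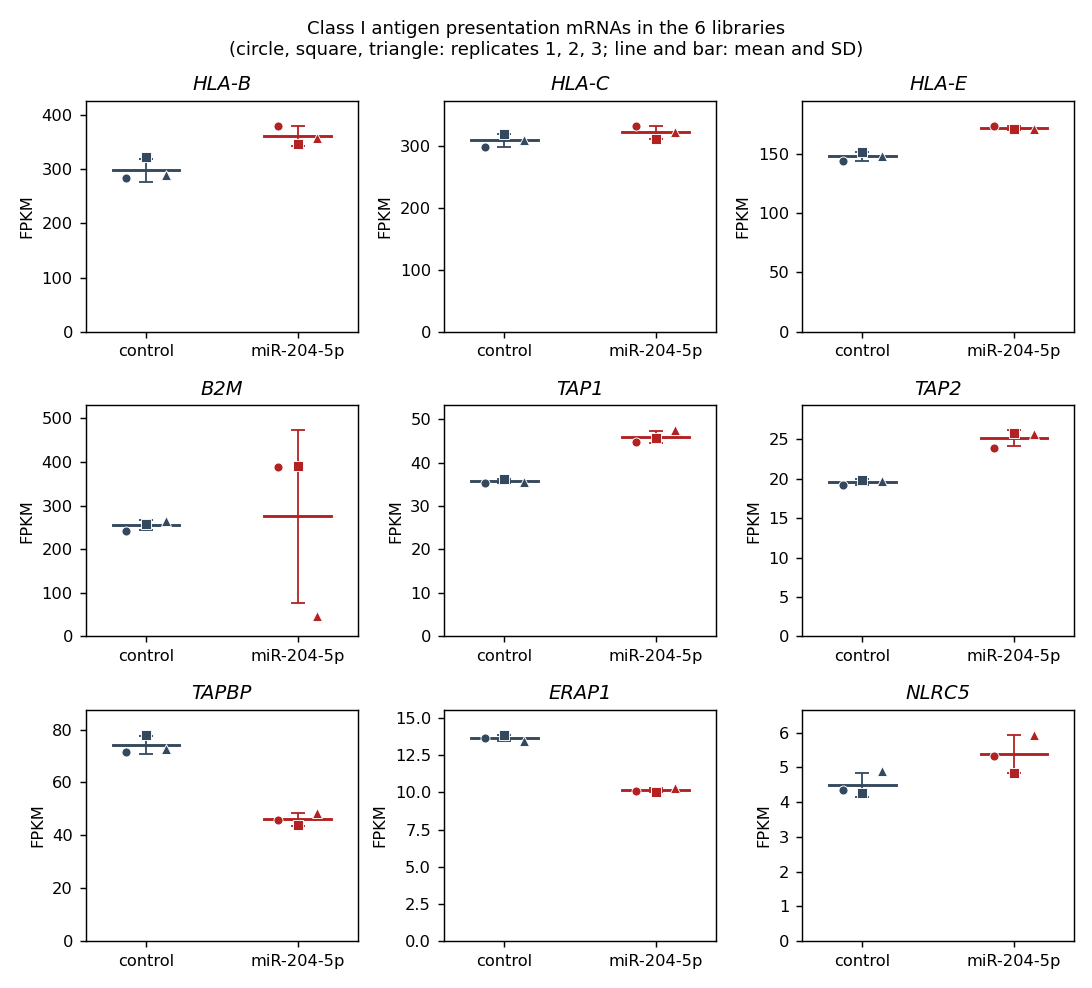
FPKM (vertical axes, from 0) of the 9 members in each library, control mimics at left and miR-204-5p mimics at right of each panel. Circles, squares and triangles are replicates 1, 2 and 3, and lines with bars are the mean and SD of 3 libraries. TAPBP and ERAP1 lie lower in all 3 miR-204-5p libraries, TAP1, TAP2, HLA-E and HLA-B lie higher in all 3, and B2M has 1 miR-204-5p library at 47.0 FPKM.

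In control cells, HLA-C (309 FPKM), HLA-B (298) and B2M (255) were highest, followed by HLA-E (148), TAPBP (74.1), TAP1 (35.7), TAP2 (19.6), ERAP1 (13.7) and NLRC5 (4.50). HLA-C and HLA-B overlapped across the 3 control libraries, and every other neighbouring pair in this order was separate. The SD over the control libraries ran from 1.41% of the mean for TAP1 to 7.58% for NLRC5. With miR-204-5p mimics it ran from 1.05% for HLA-E to 10.2% for NLRC5, apart from B2M at 71.8%.

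HLA-E, on chr6:30489467-30494205, was the heavy chain with the tightest libraries. Its FPKM was 174, 171 and 171 with miR-204-5p mimics and 144, 152 and 148 with control mimics. Every miR-204-5p library lay above every control library, with means of 172 ± 1.81 and 148 ± 3.97 (SD, n = 3). The log2 change was 0.21 (SE 0.0343, limma adjusted p = 0.00342), or 16.1% on the mean FPKM.

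HLA-B, a classical heavy chain, had 380, 345 and 356 FPKM with miR-204-5p mimics and 283, 322 and 289 FPKM with control mimics. The groups did not overlap, although the lowest miR-204-5p library and the highest control library lay close. The means were 361 ± 17.6 and 298 ± 20.9 (SD, n = 3), a log2 change of 0.28 (SE 0.0627, limma adjusted p = 0.0135). Under quantile normalization the change was 0.18 with a limma adjusted p of 0.0505. The table lists HLA-B with a transcript of only 240 bases in 3 exons, spanning chr6:31269491-31355404 on the minus strand into HLA-C. HLA-B and HLA-C share 35 exon bases in GENCODE 29, and the longest HLA-B transcript has 1547 bases. Whether that length entered its FPKM is not given in the sources used here, so its level per length is uncertain.

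HLA-C, the neighbouring classical heavy chain on chr6:31268749-31272086, had 333, 312 and 322 FPKM with miR-204-5p mimics and 298, 319 and 310 FPKM with control mimics. The groups overlapped, with replicate 2 of the controls above replicate 2 of the miR-204-5p libraries. The log2 change was 0.06 (SE 0.0429, limma adjusted p = 0.322), with a 95% interval of −0.04 to 0.16. An increase of the size seen for HLA-B, 0.28, lay outside that interval, but the difference between the genes was not tested. Class I heavy chains are near-identical over long stretches and differ between people, so reads of HLA-B, HLA-C, HLA-E and other heavy chains may have been exchanged among them.

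B2M, the light chain that every class I heavy chain needs, lies at chr15:44711477-44718877. Its FPKM was 388, 392 and 47.0 with miR-204-5p mimics and 242, 259 and 266 with control mimics. Replicates 1 and 2 of the miR-204-5p group lay above every control, and replicate 3 lay 5.15-fold under the lowest control and 8.29-fold under the mean of the other two. Over all 6 libraries the log2 change was −0.40 (SE 0.791, limma adjusted p = 0.725, 95% interval −2.30 to 1.50), while the ratio of mean FPKM was 1.08, the opposite direction. Without miR-204-5p replicate 3 the log2 change was 0.61 (limma adjusted p = 0.00124), from 390 against 255 FPKM. Without replicate 1 or replicate 2 of that group it was −0.90 or −0.91.

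The low B2M value stood nearly alone in its library. Among the 5481 genes whose FPKM averaged 10 or more, 4 genes were lower in that library by over 4-fold than in both other miR-204-5p libraries, B2M among them. Each of the other 5 libraries had 0 to 3 genes that stood as far under both others of its group. In the same library HLA-E, TAP1 and TAP2 lay with the other miR-204-5p replicates. B2M therefore has no call in either direction in these data.

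TAP1 and TAP2 encode the subunits of the peptide transporter, and both rose. TAP1, on chr6:32845209-32853978, had 44.7, 45.6 and 47.5 FPKM with miR-204-5p mimics and 35.3, 36.3 and 35.6 FPKM with control mimics. TAP2, on chr6:32821833-32838727, had 23.9, 25.8 and 25.6 FPKM against 19.1, 19.8 and 19.8 FPKM. Neither gene overlapped between groups. The log2 changes were 0.35 for TAP1 (SE 0.0369, limma adjusted p = 0.000663) and 0.35 for TAP2 (SE 0.0438, limma adjusted p = 0.00137), which is 28.5% on the mean FPKM for each. The ratio of TAP1 to TAP2 FPKM within a library was 1.77 to 1.87 with miR-204-5p mimics and 1.80 to 1.84 with control mimics.

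TAPBP, the bridge between transporter and heavy chain, had the largest called change among the 9 genes with all 6 libraries in the fit. It lies at chr6:33299694-33314387 on the minus strand. Its FPKM was 45.6, 43.8 and 48.5 with miR-204-5p mimics and 71.7, 78.1 and 72.5 with control mimics. All 3 miR-204-5p libraries lay far under the lowest control, with means of 46.0 ± 2.39 and 74.1 ± 3.47 (SD, n = 3). The log2 change was −0.68 (SE 0.0532, limma adjusted p = 0.00024), or −37.9% on the mean FPKM. Its 3'UTR held the 6-base match shown above, a class that 12.3% of genes had as their best match.

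TAPBP fell while TAP1 rose, so that the balance between these 2 mRNAs differed, and protein was not measured in these libraries. The FPKM of TAPBP divided by that of TAP1 was 2.03, 2.15 and 2.04 in the control libraries and 1.02, 0.961 and 1.02 in the miR-204-5p libraries. This ratio was chosen after the values had been seen and is given as a description.

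ERAP1, the aminopeptidase that trims peptides to a length that class I chains accept, lies at chr5:96760810-96808100 on the minus strand. Its FPKM was 10.1, 10.1 and 10.3 with miR-204-5p mimics and 13.7, 13.9 and 13.5 with control mimics. The groups were wide apart, with means of 10.1 ± 0.125 and 13.7 ± 0.213 (SD, n = 3). The log2 change was −0.40 (SE 0.0406, limma adjusted p = 0.000609), or −25.8% on the mean FPKM. ERAP1 shares 299 exon bases with CAST on the opposite strand, and whether reads were counted by strand is not given in the sources used here. CAST itself had a log2 change of −0.04 at a mean of 43.8 FPKM.

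NLRC5, the transactivator of class I promoters, lies at chr16:56989485-57048354. It had 5.34, 4.85 and 5.95 FPKM with miR-204-5p mimics and 4.34, 4.27 and 4.89 FPKM with control mimics. One control library, replicate 3, lay above the lowest miR-204-5p library, so the groups overlapped. The log2 change of 0.21 (SE 0.0848) had a limma p of 0.0428 before and 0.0897 after adjustment, with a 95% interval of 0.01 to 0.42. It did not pass the test under any of the 13 alternative settings (limma adjusted p 0.0606 to 0.217). The transcript listed for NLRC5 has 4777 bases, against 6822 for the longest.

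**Figure D2:**
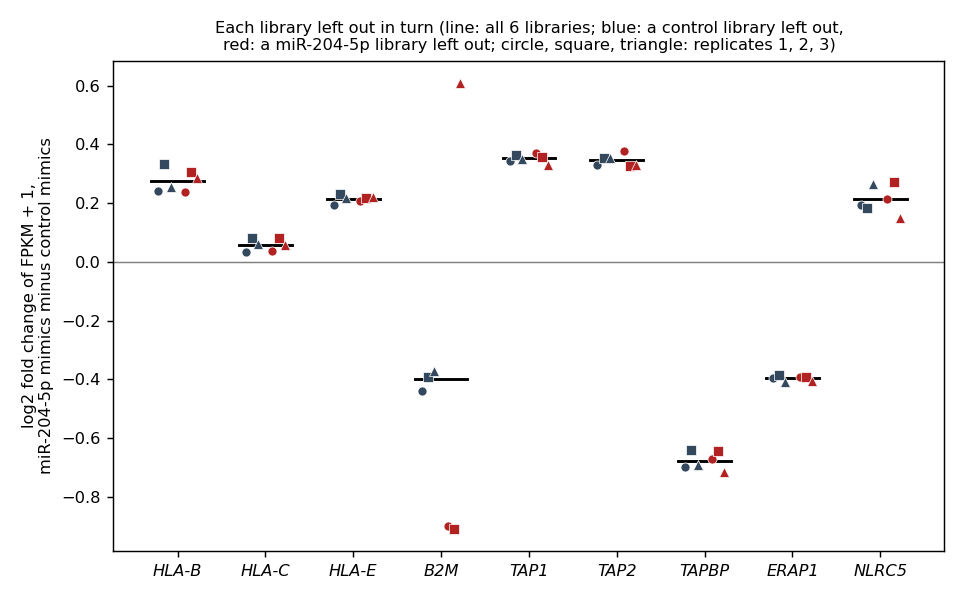
Log2 change of FPKM + 1 (vertical axis, miR-204-5p mimics minus control mimics) of the 9 members with each library left out in turn. Black lines are all 6 libraries, blue and red symbols leave out a control or a miR-204-5p library, and circles, squares and triangles stand for replicates 1, 2 and 3. B2M moves from −0.40 to 0.61 without miR-204-5p replicate 3, whereas TAPBP stays between −0.72 and −0.64.

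The same comparison was read in 8 lists of genes related to the pathway, 89 genes in all, of which 88 were in the table. By limma 17 fell and 20 rose, or 37 of 88, against 40.8% of all genes, and their median log2 change was 0.03. The lists are described one by one, with the share of all genes that fell (16.8%) or rose (23.9%) in parentheses. No list was tested against these shares. PDIA3, PDIA4, TAPBPL, PSMB10, PSME1, NRDC, NFKB1, IFNGR2, SOCS1, GBP1 and IFIH1 fall outside the rule for named genes and are named or plotted after their values had been seen, to complete the counts and roles.

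**Figure D3:**
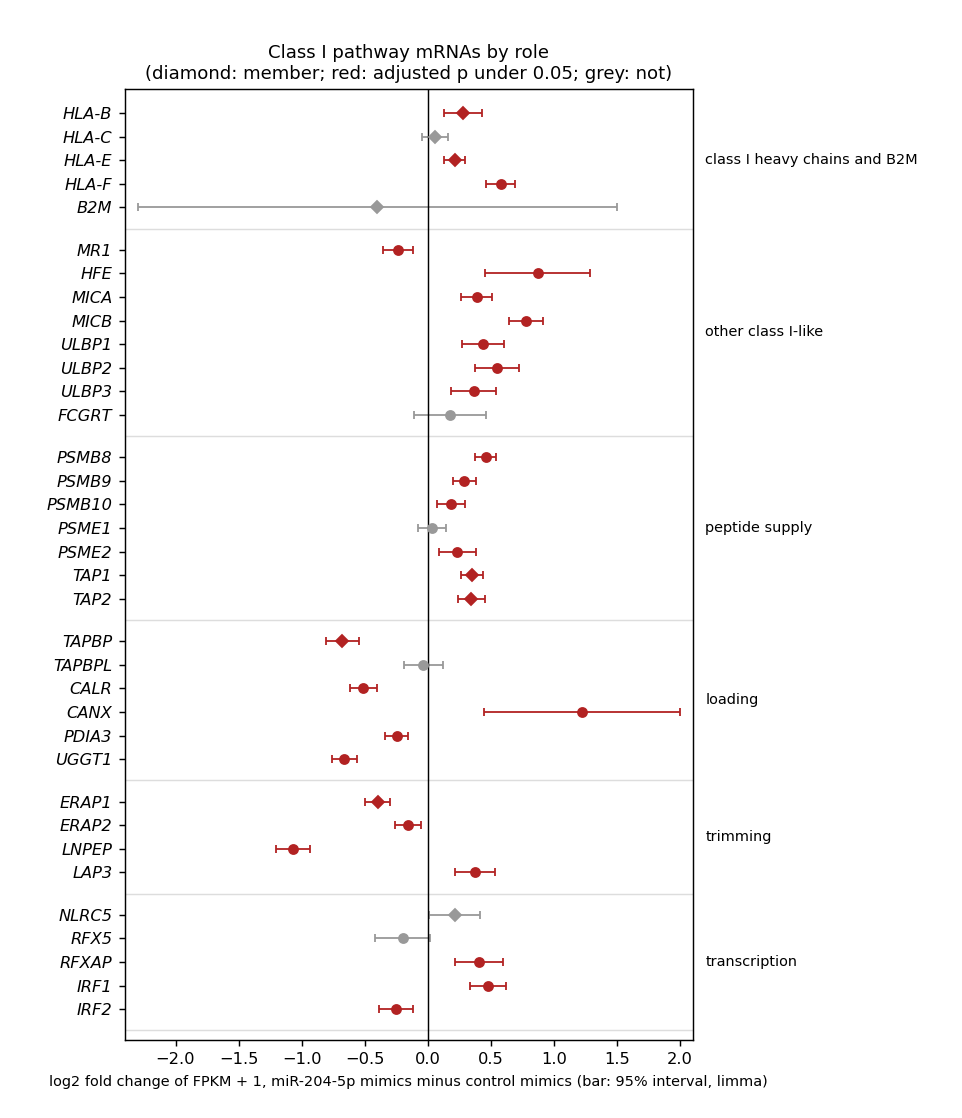
Log2 change of FPKM + 1 (horizontal axis, miR-204-5p mimics minus control mimics) with 95% intervals from limma for genes of the pathway, grouped by role. Diamonds are the 9 members and circles related genes, and red marks an adjusted p under 0.05. Class I-like chains, immunoproteasome subunits and TAP lie mostly to the right of 0, and TAPBP, CALR, UGGT1, ERAP1 and LNPEP to the left. In the loading and trimming groups, CANX (1.23) and LAP3 (0.37) lie to the right, and TAPBPL (−0.04) is grey.

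Among the other class I and class I-like genes, 7 of 9 rose (23.9% of all genes), 1 fell (16.8%) and 1 did not pass. Their median log2 change was 0.44. HLA-F, a nonclassical chain, had 22.4 ± 0.942 against 14.7 ± 0.507 FPKM (SD, n = 3), a log2 change of 0.58 (limma adjusted p = 0.000291). Its 3 miR-204-5p libraries had 23.5, 21.8 and 21.9 FPKM and the 3 controls 14.3, 15.3 and 14.5 FPKM, without overlap.

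The stress-induced ligands that natural killer cells read through NKG2D, which carry class I-like folds without peptide, were part of the same list. MICB had 14.9, 13.9 and 14.7 FPKM against 8.43, 7.52 and 8.19 FPKM, a log2 change of 0.78 (limma adjusted p = 0.000188). MICA rose by a log2 change of 0.39, ULBP1 by 0.44, ULBP2 by 0.55 and ULBP3 by 0.36, with limma adjusted p from 0.0015 to 0.00867. The mRNAs of all 5 ligands were therefore higher, ULBP1 from a low level of 0.591 to 1.15 FPKM. Over the related lists, a match of 7 or 8 bases in the longest 3'UTR was held by 7 of 17 genes that fell and 2 of 20 that rose. It was held by 14 of 51 that did not pass and by 27.1% of all genes with a 3'UTR. This split was not planned, and the shares among all genes of the table that fell or rose were not computed. The 2 that rose were MICB and SOCS3, and the 7 that fell were LNPEP, JAK2, UGGT1, PDIA3, IFNAR1, IRF2 and MR1. In these lists the longest 3'UTR ran from 44 bases for PSME2 to 12533 for CIITA, and the part of length in this split was not tested. The MICB site is shown, with the match of 7 bases in capitals.
MICB, chr6:31510073-31510098, plus strand: agagagccagcAAAGGGAtcatgacc

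HFE, a class I-like regulator of iron uptake, had 5.75 ± 0.326 against 2.76 ± 0.982 FPKM (SD, n = 3), a log2 change of 0.87 (limma adjusted p = 0.00803). The listed HFE transcript has 809 bases, against 4117 in the longest 3'UTR of the gene. MR1, which presents vitamin metabolites to mucosal T cells, was the one gene of the list to fall, with 6.34 against 7.66 FPKM and a log2 change of −0.24 (limma adjusted p = 0.00999), and its longest 3'UTR held 4 seed matches of 6 or 7 bases. FCGRT, the neonatal Fc receptor, had a log2 change of 0.17 (limma adjusted p = 0.292).

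Chaperones of the endoplasmic reticulum fold and load class I chains together with TAPBP. Of 8 such genes, 4 fell (16.8% of all genes), 1 rose (23.9%) and 3 did not pass, with a median log2 change of −0.20. CALR (calreticulin), which holds the heavy chain in the loading complex, had 433, 411 and 430 FPKM with miR-204-5p mimics and 628, 579 and 610 FPKM with control mimics. All 3 miR-204-5p libraries were lower, with a log2 change of −0.51 (limma adjusted p = 0.000368).

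UGGT1, which checks unfolded glycoproteins and returns them to the loading cycle, fell from 18.6 to 11.4 FPKM, a log2 change of −0.66 (limma adjusted p = 0.00013). The listed UGGT1 transcript has only 586 bases, against 5935 in the longest 3'UTR of the gene. PDIA3, the disulfide isomerase joined to TAPBP, had a log2 change of −0.24 (limma adjusted p = 0.00312), and PDIA4, a related isomerase, had −0.10 (limma adjusted p = 0.0453). TAPBPL, the TAPBP-like peptide editor, had −0.04 (limma adjusted p = 0.697).

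CANX (calnexin), which binds new heavy chains, was the gene that rose, with 205, 205 and 113 FPKM against 88.0, 88.1 and 46.9 FPKM. Replicate 3 was the low library in both groups, and the listed CANX transcript has 585 bases. Its log2 change of 1.23 (limma adjusted p = 0.0237) was 1.08 or 1.09 and no longer called without miR-204-5p replicate 1 or 2 (limma adjusted p = 0.0764 and 0.0796).

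The mRNAs of immunoproteasome subunits, which cut peptides suited to class I chains, rose with those of the transporter. PSMB8 had 88.0, 85.3 and 85.8 FPKM with miR-204-5p mimics and 61.6, 64.3 and 61.7 FPKM with control mimics, a log2 change of 0.46 (limma adjusted p = 0.000199). PSMB9 had 94.3 ± 2.05 against 76.9 ± 2.34 FPKM (SD, n = 3), a log2 change of 0.29 (limma adjusted p = 0.00142), and PSMB10 had 0.18 (limma adjusted p = 0.0194). Neither PSMB8 nor PSMB9 overlapped between groups, and both kept their call under all 13 alternative settings. PSMB10 was no longer called without miR-204-5p replicate 2, where 3 genes of the proteasome list were higher.

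In the whole list of 10 proteasome genes, 4 rose (23.9% of all genes) and 1 fell (16.8%). PSME2, a subunit of the interferon-induced proteasome activator, was the other gene to rise (log2 change 0.24, limma adjusted p = 0.0241). The gene to fall was PSMB6, a constitutive subunit, at −0.38 (limma adjusted p = 0.0487), whose groups overlapped and which was no longer called without miR-204-5p replicate 1 or 3 or control replicate 1 or 3 (limma adjusted p 0.131 to 0.136). PSME2 was no longer called without the same libraries (limma adjusted p 0.0543 to 0.0694).

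Peptidases other than ERAP1 moved in both directions. LNPEP, which trims peptides in endosomes for cross-presentation, had 3.74, 3.89 and 4.03 FPKM with miR-204-5p mimics and 9.67, 9.24 and 8.84 FPKM with control mimics. The groups were far apart, with a log2 change of −1.07 (limma adjusted p = 7.73e-05). ERAP2, the partner of ERAP1, had 23.7 ± 0.169 against 26.6 ± 1.13 FPKM (SD, n = 3), a log2 change of −0.16 (limma adjusted p = 0.026). LAP3, a cytosolic leucine aminopeptidase, rose by 0.37 (limma adjusted p = 0.00527).

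Of 8 peptidases 3 fell (16.8% of all genes), with NRDC the remaining one, and 1 rose (23.9%). The number lower was 1 without miR-204-5p replicate 2 or 3 or control replicate 1 or 3, and ERAP2 was also not called without miR-204-5p replicate 1 (limma adjusted p 0.0539 to 0.0721 over these 5 fits). LNPEP holds 3 seed matches in its 3'UTR of 8982 bases, the longest of 8 bases.
LNPEP, chr5:97037367-97037393, plus strand: gtttcacttgtAAAGGGAAaaggctta

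TAP2, PSMB8, TAP1 and PSMB9 lie side by side on chr6:32821833-32859585, in the class II region of the MHC, and all 4 rose. The fifth gene of the table in that span, AL669918.1, shares exons with TAP2 and had a log2 change of −0.19 at a mean of 0.154 FPKM. PSMB8 and PSMB9 share 139 exon bases on opposite strands. With PSMB8-AS1, TAP1 shares 456 and PSMB8 618 on the opposite strand, and PSMB9 174 on the same strand. Part of the reads of these genes may therefore not be told apart. On chr5:96760810-97037515 the table lists transcripts of ERAP1, ERAP2 and LNPEP, and all 3 genes fell. Other annotated exons of CAST, whose log2 change was −0.04, reach into that span.

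The promoters of the members were read for letters of known regulators, because several genes of the pathway changed. RefSeq gives a window of 250 bases before to 50 bases after the gene start on GRCh38.p14, and 7 of the 9 members had an entry, the exceptions being HLA-E and NLRC5. Shares of promoters are over all entries, whereas a gene was counted where any of its entries held the letters. The core of the interferon-stimulated response element, which IRF factors bind, was searched on both strands as GAAA, any 2 bases and GAAA again, which reads as TTTC on either side of 2 bases on the other strand. It occurred in 3.57% of 35116 promoters and in 5 of 7 members, namely B2M, TAP1, TAP2, TAPBP and ERAP1. HLA-F and PSMB8 also held it, and HLA-B, HLA-C and PSMB9 did not within their windows. The PSMB9 window starts at chr6:32853942, so the TAP1 match at chr6:32853817-32853844 lies outside it. Forms of the element that depart from these letters were not sought. The windows are shown with the matching letters in capitals, in the direction of the gene, overlapping matches merged.
TAP1, chr6:32853817-32853844, minus strand: ggccgcTTTCGATTTCGCTTTCccctaa
TAP2, chr6:32838782-32838803, minus strand: ggaagcGAAAGCGAAAgctgcc
TAPBP, chr6:33314077-33314104, minus strand: ttggagGAAAGTGAAAGTGAAAggagga
ERAP1, chr5:96807928-96807949, minus strand: ctccacTTTCACTTTCggtcct
B2M, chr15:44711367-44711394, plus strand: ctctaaGAAAAGGAAACTGAAAacggga
Members that rose (TAP1, TAP2) and members that fell (TAPBP, ERAP1) both held these letters. A narrow kappa B form, GGGGATT followed by any base and CC, occurred on either strand in 0.262% of promoters and in HLA-B and TAPBP among the members. Other kappa B forms were not sought, so members without these letters may hold one. The shorter core CCAAT, sought on both strands, occurred in 34.6% of promoters and in 5 of the 7 members. Another short core, TGACG, which is the core of cyclic AMP response elements and of the X2 box, occurred in 24.6% of promoters and in 4 of the 7 members.

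Of 12 factors that act on class I promoters, 2 rose (23.9% of all genes), 2 fell (16.8%) and 8 did not pass. IRF1, which binds the response element above, had 33.3, 32.4 and 29.8 FPKM with miR-204-5p mimics and 21.3, 22.9 and 23.7 FPKM with control mimics, without overlap. Its log2 change was 0.48 (SE 0.0600, limma adjusted p = 0.00134). IRF2, a competitor of IRF1 on many promoters, had −0.25 (limma adjusted p = 0.0128), and NFKB1 also fell.

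RFXAP, a subunit of the RFX complex on which NLRC5 acts, rose by 0.40 (limma adjusted p = 0.00755). RFX5, another subunit, had −0.20 (limma adjusted p = 0.125), and −0.29 without control replicate 2 (limma adjusted p = 0.0244).

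Of 11 interferon receptor and JAK-STAT genes, 3 fell (16.8% of all genes) and 2 rose (23.9%). JAK2, a kinase of the interferon gamma receptor, fell from 2.99 to 1.91 FPKM (−0.46 on the log2 scale, limma adjusted p = 0.00151), and IFNAR1, a type I interferon receptor chain, had −0.32 (limma adjusted p = 0.0019). SOCS3, a feedback inhibitor of JAK signaling, rose by 0.60 (limma adjusted p = 0.000839). SOCS1 also fell and IFNGR2 rose. The number higher was 1 without miR-204-5p replicate 1 or 3 or any one control library, and also with the replicate block, each of the 3 other scalings and no trend.

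Interferon-stimulated genes outside class I gave a background for the pathway. Of 20, 3 fell (16.8% of all genes) and 2 rose (23.9%), with a median log2 change of −0.15. OAS2 and OAS1, sensors of double-stranded RNA, fell by 0.74 and by 0.53 on the log2 scale (limma adjusted p = 0.0071 and 0.0107), and GBP1, a guanylate-binding protein, also fell. IFIT3, an antiviral protein, rose by 0.34 (limma adjusted p = 0.0249), and IFIH1, another RNA sensor, rose as well.

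These numbers depended on single libraries and on scaling. Without control replicate 1, 8 of the 20 fell, and 6 fell with FPKM scaled to equal sums and 5 with equal medians or quantile normalization. Over all genes, 2114 fell without control replicate 1, and 2885, 2948 and 3026 with those 3 scalings in turn, against 2520. The number higher was 4 without control replicate 2 and 1 without control replicate 3 or any one miR-204-5p library. The control libraries themselves were spread for this list, OAS2 having 4.53, 7.19 and 5.92 FPKM, with replicate 1 the lowest.

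Of 10 class II genes 1 rose (23.9% of all genes), and 6 had a mean FPKM under 1. The gene that rose was HLA-DQB1 (8.85 against 6.08 FPKM, log2 change 0.48, limma adjusted p = 0.00818). CIITA, the class II relative of NLRC5, had 0.755 against 0.605 FPKM (log2 change 0.13, limma adjusted p = 0.251), and CD74, the invariant chain, 7.48 against 6.26 FPKM (0.22, limma adjusted p = 0.302).

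**Figure D4:**
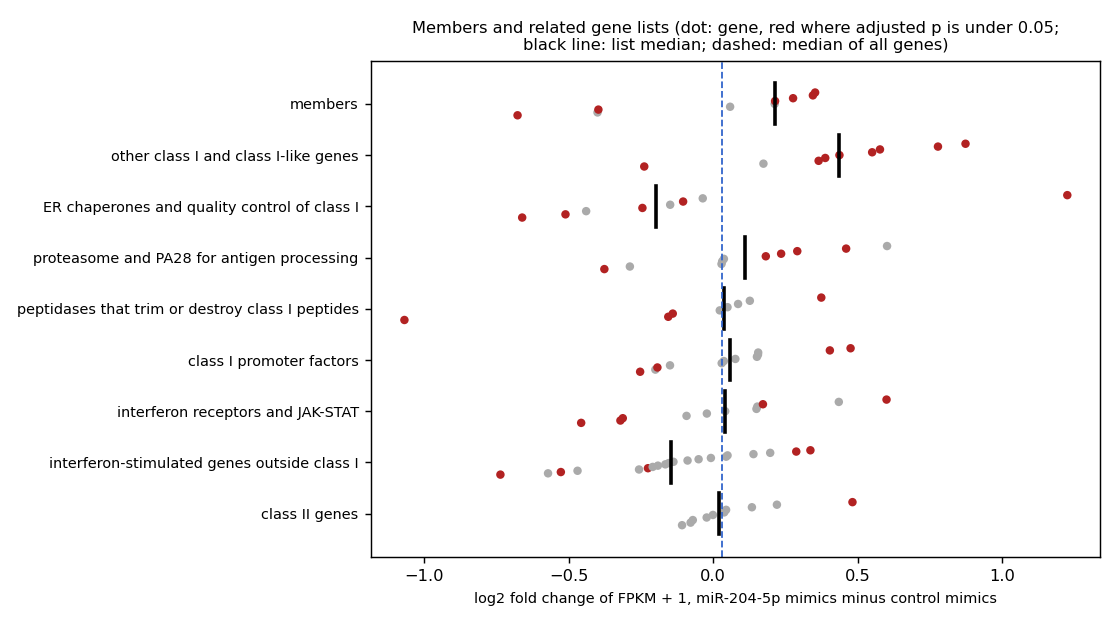
Log2 change of FPKM + 1 (horizontal axis, miR-204-5p mimics minus control mimics) of each gene in the 9 members and the 8 related lists. Red dots have a limma adjusted p under 0.05, black lines are list medians and the dashed line is the median of all genes, 0.03. The median is 0.44 for other class I and class I-like genes and −0.15 for interferon-stimulated genes outside class I.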

How the data were processed

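Total RNA of 6 UM-SCC1 cultures was sequenced from Illumina TruSeq libraries on HiSeq X instruments. The submitters' processing notes name HISAT2, StringTie and hg38, with versions not given in the sources used here. The authors deposited FPKM values per gene and library, beside log2 ratios and p-values of their own edgeR comparison, which were not used. Read counts were not used here. Spacing of low FPKM values placed depth near 13.1 to 16.4 M fragments per library, but only 27.8% to 32.9% of those values were whole multiples (tolerance 0.03, 6% by uniform spacing), so reads were not recovered and depth stays approximate. At that depth the lowest library held about 283 fragments of NLRC5.

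log2(FPKM + 1) of 14959 genes was fitted with limma 3.58.1 (lmFit, eBayes with trend, two-sided) in R 4.3.3 and adjusted by Benjamini-Hochberg at 0.05, with no filter. The step was tested on simulated data. Replicate numbers of the labels did not pair libraries: deviations of same-numbered libraries correlated at −0.04, −0.02 and −0.11. Named were the 9 members, every class I gene of the first list, up to 3 called genes per list with a mean FPKM of at least 1 and the largest change, RFX5, IRF1, PSMB8, PSMB9, ERAP2, CIITA and CD74, and the 3 genes most like the members. Of the related lists, 2 genes are not reported here and were left out of the counts. Members and lists were chosen with earlier results of these data known. 3'UTRs came from GENCODE 29, in which 14946 listed transcripts were found. Other steps used Python 3.11.15 and scipy 1.17.1.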

Additional observations from a re-analysis of the deposited data

How the results depend on the processing

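Across 13 alternatives (a pseudocount of 0.1, a filter at a mean FPKM of 1, the replicate block, scaling to equal sums or medians, quantile normalization, no trend, and each library left out), 2 members were lower throughout and 3 to 5 were higher: 3 under quantile normalization, 5 without miR-204-5p replicate 3. Leaving out 1 library gave 6 to 8 members without overlap. With fewer libraries any gene overlaps less easily, and the share over all genes was not computed for these fits. The related genes gave 12 to 18 lower and 17 to 21 higher, where 4971 to 5371 of all genes were called, against 6098 with every library. Directions reversed for HLA-C under quantile normalization (−0.046) and for B2M without miR-204-5p replicate 3 (0.61). With other libraries left out in turn, the lowest log2 change of B2M was −0.91. Of 36 called named genes, 28 kept their call throughout. Over all genes, 3080 were higher and 2885 lower with equal sums, 3106 and 2948 with equal medians. Matches of 7 or 8 bases were in 0 members by the longest 3'UTR and 2 with all 3'UTRs joined. The cause was not tested.

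Replicate numbers did not pair the libraries, and 0 of 6 libraries matched their own number best across groups. With the replicate block 5096 genes were called, against 6098, and 4 members were higher and 2 lower, with 18 related genes higher and 13 lower. HLA-B had a limma adjusted p of 0.0486, and PSMB6, ERAP2, PSME2, HBA1 and DNAAF3 were no longer called. Depth limits low genes such as CIITA and ULBP1 most.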

Other observations

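The genes whose pattern over the 6 libraries was most like the mean of the 9 standardized members were HBA1, a hemoglobin chain nearly identical to its neighbour HBA2 and so uncertain as to its reads (Pearson r = 0.997), DNAAF3, a dynein assembly factor (0.996), and PSME2 (0.991), among 144 genes with r of at least 0.95. The 6 points share the group difference and are given as a description. HBA1 and DNAAF3 were picked by this pattern, so their group differences and calls below follow from the choice and are no further test. The member mean joins members that rose with members that fell, so it stands for neither direction alone. HBA1 had 34.6, 28.1 and 28.6 FPKM with miR-204-5p mimics and 16.8, 24.1 and 20.9 FPKM with control mimics, a log2 change of 0.55 (limma adjusted p = 0.0196). It was no longer called without miR-204-5p replicate 1 (0.46, limma adjusted p = 0.0591). DNAAF3 had 6.96 ± 0.993 against 4.47 ± 0.933 FPKM (SD, n = 3), a log2 change of 0.55 (limma adjusted p = 0.0242), which was no longer called without miR-204-5p replicate 1 or 3 or control replicate 1 or 3 (limma adjusted p 0.0579 to 0.0719). In the member mean itself, control replicate 2 lay nearest to the miR-204-5p libraries.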
